A study of Mus musculus with 24 samples.

Results

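The subunit genes of the IL-12 cytokine family, Il12b, Ebi3, Il27, Il12a and Il23a, were followed in mouse bone marrow-derived macrophages labelled as knockout for O-GlcNAc transferase (OGT) and in wild-type macrophages. They were chosen by symbol and are 5 of the 24421 gene symbols counted in each library. The 24 libraries of total RNA came from C57BL/6J mice aged 12 weeks and form 6 groups of 4. OGT knockout (KO) and wild-type (WT) macrophages were stimulated for 12 hours, with LPS at 100 ng/ml or with IL-4 at 10 ng/ml, or left unstimulated (M0). OGT is the enzyme that attaches O-GlcNAc, a single sugar, to proteins in the nucleus and cytoplasm. LPS, a bacterial cell wall component, gives the state labelled M1, and IL-4, a type 2 cytokine, gives the state labelled M2. The sources used here do not say how the knockout was made or in which cells. KO libraries carry the label numbers 5 to 8 and WT libraries the numbers 1 to 4. Whether replicates were separate animals or cultures is not in the labels, so the p-values rest on a spread between libraries that may be technical.

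Cytokines of the IL-12 family are heterodimers of an alpha chain, built like other helical cytokines, and a beta chain that resembles a soluble cytokine receptor. The beta chain made by Il12b (p40) pairs with the alpha chain of Il12a (p35) to form IL-12 and with that of Il23a (p19) to form IL-23, while the beta chain made by Ebi3 pairs with the alpha chain of Il27 (p28) to form IL-27 and with that of Il12a to form IL-35. Macrophages and dendritic cells make IL-12, IL-23 and IL-27 when microbial products reach their Toll-like receptors, and these cytokines act mainly on T and NK cells. A level of 1 chain's mRNA is not a level of the secreted cytokine, which was not measured here.

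The promoter windows of both beta chain genes are shown because Il12b was called higher in KO after LPS and Ebi3 was not. They are RefSeq sequences of GRCm38.p6, each holding 250 bases before the start site and 50 bases after it. Of the 5 genes, 3 had a window in the RefSeq table. The Il12b window is chr11:44399813-44400112 and the Ebi3 window chr17:55952373-55952672, both on the plus strand and written 5′ to 3′. Capitals mark matches to the searched motifs.
Il12b: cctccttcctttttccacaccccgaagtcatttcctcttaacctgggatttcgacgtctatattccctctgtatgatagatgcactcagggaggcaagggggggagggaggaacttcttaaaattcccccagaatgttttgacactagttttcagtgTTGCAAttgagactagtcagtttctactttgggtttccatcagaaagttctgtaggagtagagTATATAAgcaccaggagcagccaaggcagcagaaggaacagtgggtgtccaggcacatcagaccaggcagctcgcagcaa
Ebi3: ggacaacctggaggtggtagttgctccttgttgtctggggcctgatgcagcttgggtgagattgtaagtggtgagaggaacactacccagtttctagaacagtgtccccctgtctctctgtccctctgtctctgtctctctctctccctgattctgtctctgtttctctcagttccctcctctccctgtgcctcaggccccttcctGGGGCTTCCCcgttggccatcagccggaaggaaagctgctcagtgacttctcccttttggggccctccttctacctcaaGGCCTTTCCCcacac
The motifs, searched on both strands, were a TATA box (TATANAA), a C/EBP site (TTGCAA), an AP-1 site (TGANTCA), an NF-kB site (GGGA and CC with any 4 bases between them) and an interferon-stimulated response element (GAAA and GAAA with any 2 bases between them). In the Il12b window, a TATA box match began 30 bases before the start site, at position -30, and a C/EBP match began at -93. In the Ebi3 window, a pair of NF-kB matches on the minus strand began at -44 and at +36, counted on the plus strand. Of 32851 RefSeq windows of the same length, 11.3% held the TATA box motif, 20.7% the NF-kB motif, 6.23% the C/EBP motif, 7.81% the AP-1 motif and 3.44% the interferon motif. Il12a had windows at both of its start sites, and NF-kB matches lay only in the window of the downstream start, where they began at -113, -112 and +18 and the first and second overlapped. A match shows that the letters are present, and binding was not measured. A window without a match may still hold a site for that factor, since sites that differ from these letters were not searched.

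Sequencing depth split the libraries. A total of 21 libraries held 63429271 to 94942464 gene counts, while KO LPS library 7 held 172771 counts, WT LPS library 1 held 209368 and WT LPS library 2 held 201097. Levels are given as counts per 1e6 counts (CPM), scaled by edgeR's effective library sizes, and a count of 0 allows up to 0.055 CPM in a deep library but up to 17.9 CPM in a shallow one (3 counts, counting error only). The targeted gene Ogt was lower in KO libraries but still detected, so these counts alone do not show its loss. It was at 34.2 to 37.6 CPM in the 3 deep KO LPS libraries and 53.8 CPM, from 9 counts, in the shallow one, against 55.0 to 68.0 CPM in WT LPS libraries. In M0, Ogt stood at 34.5 to 36.8 CPM in KO libraries, against 47.3 to 52.4 CPM in WT libraries, and its log2 difference was -0.49 ± 0.057 in M0, -0.63 ± 0.072 in LPS and -0.71 ± 0.057 in IL-4 (KO over WT, ± SE). The 9 macrophage markers, among them Adgre1, Csf1r and Lyz2, were detected in every group, with a summed level of 8730 to 10770 CPM in KO LPS against 15564 to 16121 CPM in WT LPS, where 6 of the 9 were called lower in KO and 2 higher. The 8 stromal and endothelial markers, among them Col1a1 and Pecam1, summed to 15601 to 17754 CPM in KO LPS and 10691 to 13625 CPM in WT LPS, and 5 of the 8 were called higher in KO there, 7 in IL-4 and 8 in M0. Of all genes tested, 16.2% were called higher and 14.6% lower in KO in LPS, 17.9% and 18.2% in IL-4, and 11.8% and 10.5% in M0. In bulk RNA, a change in the number of cells that make a transcript and a change in the amount per cell cannot be told apart.

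Il12b, the beta chain of IL-12 and IL-23, is a gene of 1967 exon bases at chr11:44400063-44414033 on the plus strand (GRCm38, GENCODE M21). After LPS, its level was 171, 180, 179 and 204 CPM in KO libraries 5 to 8, against 10.3, 26.2, 12.8 and 18.6 CPM in WT libraries 1 to 4. Every KO library lay above every WT library. The mean was 184 ± 14.0 CPM in KO, against 16.9 ± 7.04 CPM in WT (SD, n = 4 each), and the fitted log2 difference was 3.55 ± 0.24 (KO over WT, ± SE; adjusted p = 5.2e-11, edgeR quasi-likelihood test with Benjamini-Hochberg adjustment over 14693 genes). The shallow libraries rest on few counts, 30 in KO library 7 and 2 and 5 in WT libraries 1 and 2, while the deep ones hold 9823 to 11985 counts in KO and 753 and 1041 in WT. Without the 3 shallow libraries the log2 difference was 3.57 (adjusted p = 8.34e-09). Il12b and Il27 were the 2 of 4 tested subunit genes called in KO against WT in LPS, both higher, beside 16.2% of all genes tested called higher and 14.6% called lower. The same 2 genes had no overlap between the KO and WT libraries, beside 8.04% of all genes tested with every KO library higher and 4.83% with every KO library lower.

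At rest, Il12b was close to the detection limit. It had 20, 0, 25 and 12 counts in KO M0 libraries, or 0.202, 0, 0.353 and 0.147 CPM, against 6, 0, 2 and 4 counts in WT M0 libraries, or 0.0721, 0, 0.0213 and 0.0461 CPM. The groups overlapped, since 1 library of each genotype held no count. The log2 difference in M0 was 2.15 ± 0.77 (KO over WT, ± SE; adjusted p = 0.0414, edgeR), and this call ended without any one of 6 of the 8 libraries: KO 5 (adjusted p = 0.0896), KO 7 (0.179), KO 8 (0.0652), WT 2 (0.108), WT 3 (0.114) or WT 4 (0.0673). It also ended without the 3 shallow libraries (0.0642), without KO numbers 7 and 8 (0.269) and with DESeq2 (0.0904). After IL-4, the 4 KO libraries held 4, 9, 0 and 2 Il12b counts and the 4 WT libraries 0, 2, 0 and 2, with a log2 difference of 1.65 ± 1.4 (adjusted p = 0.335, edgeR). In M0, Il12b was higher and Ebi3 lower among the 4 tested subunit genes, beside 11.8% of all genes tested called higher and 10.5% called lower.

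**Figure D1:**
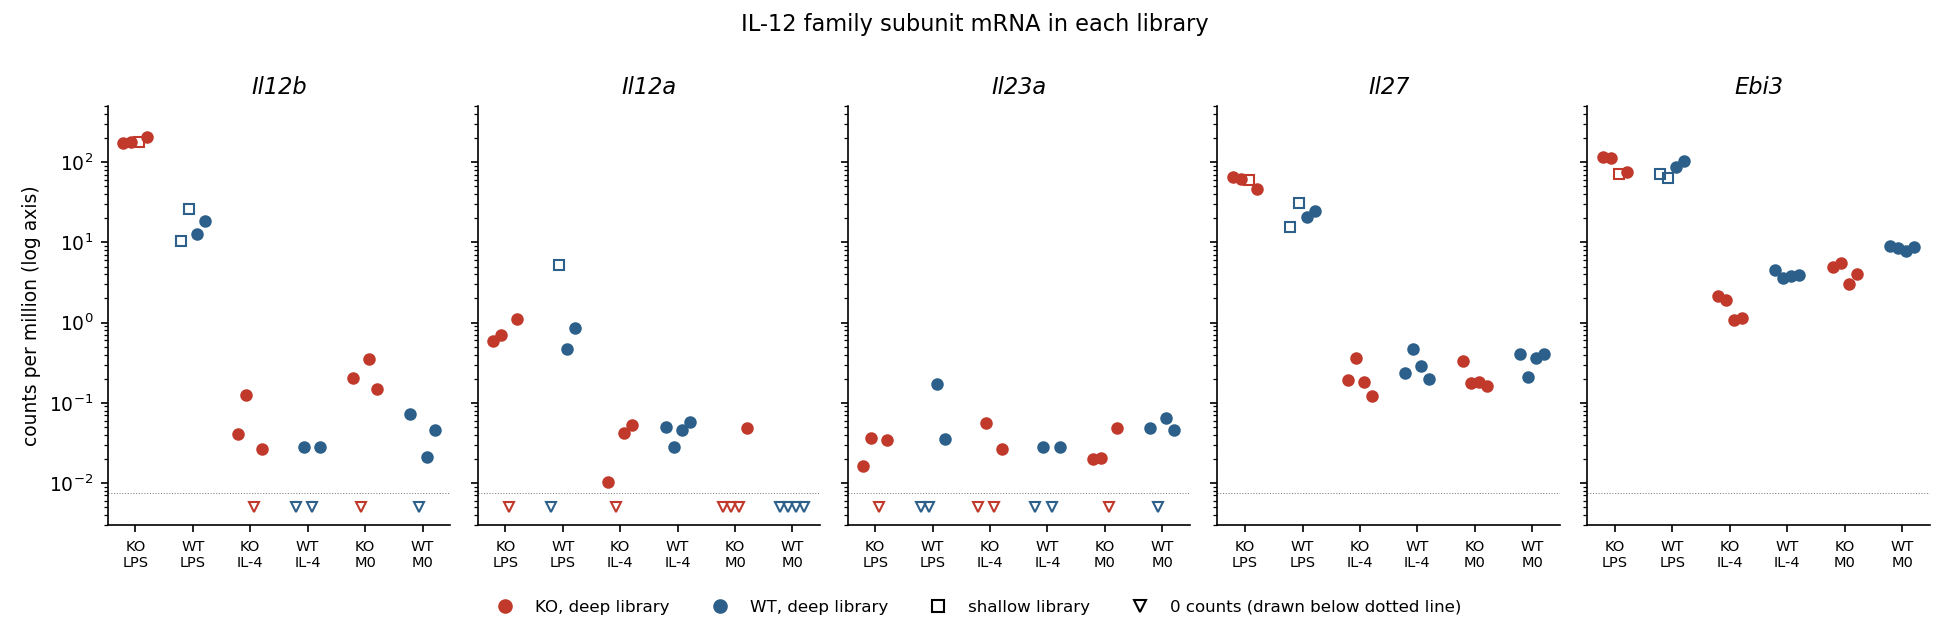
Level of each subunit gene in each of the 24 libraries, in CPM on a log axis, with KO in red and WT in blue; open squares are the 3 shallow libraries and open triangles, drawn below the dotted line, are libraries with 0 counts. After LPS, the 4 KO libraries sit at 171 to 204 CPM of Il12b, above the 4 WT libraries at 10.3 to 26.2 CPM, while the Ebi3 libraries of both genotypes overlap after LPS and lie lower in KO in IL-4 and M0.

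Ebi3, the beta chain of IL-27 and IL-35, is a gene of 1154 exon bases at chr17:55952640-55957022 on the plus strand, and was the only subunit gene above 1 CPM in every library of every state. After LPS it had 117, 112, 71.8 and 75.4 CPM in KO libraries, against 72.2, 62.8, 87.4 and 104 CPM in WT libraries. The shallow ones, KO library 7 and WT libraries 1 and 2, rest on 12, 14 and 12 counts of Ebi3. The genotypes overlapped, with means of 93.8 ± 23.5 CPM (KO) and 81.6 ± 18.0 CPM (WT; SD, n = 4 each), and the log2 difference was 0.11 ± 0.18 (KO over WT, ± SE; adjusted p = 0.694, edgeR). KO libraries 5 and 6 were above KO libraries 7 and 8 in all 3 states, though the place of KO library 7 in LPS is uncertain at its few counts. The LPS difference was -0.31 (adjusted p = 0.0692) without KO numbers 5 and 6, and 0.29 (adjusted p = 0.0146) without KO numbers 7 and 8, so its direction rested on which KO libraries entered. The value of -0.31 has KO library 8 as its only deep KO LPS library.

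In the other states Ebi3 was lower in KO. In M0 it had 4.87, 5.46, 3.02 and 4.02 CPM in KO libraries, against 9.04, 8.55, 7.71 and 8.83 CPM in WT libraries, and after IL-4 it had 2.14, 1.93, 1.08 and 1.15 CPM in KO libraries, against 4.50, 3.56, 3.83 and 3.94 CPM in WT libraries. Every KO library lay below every WT library in both states. Ebi3 fell in KO by 0.96 ± 0.17 in M0 (adjusted p = 0.000175) and by 1.32 ± 0.20 in IL-4 (adjusted p = 1.27e-05; log2, KO over WT, ± SE, edgeR). Ebi3 was the only 1 of the 4 tested subunit genes called in IL-4, beside 17.9% of all genes tested called higher and 18.2% called lower in KO. The share of all genes tested with every KO library lower was 13.6% in M0 and 19.8% in IL-4. The summed macrophage markers were also lower in KO in these states, at 7459 to 9193 CPM against 11936 to 13562 CPM in WT M0 and at 5273 to 5573 CPM in KO IL-4 against 5928 to 6568 CPM in WT IL-4. Of the 9 markers, 4 were called lower in M0, and 2 lower and 1 higher in IL-4. Their median log2 difference was -0.22 in M0 and 0.04 in IL-4, so the lower sum in IL-4 was not a fall of most markers. The part of these markers in the Ebi3 difference was not tested. Of the exon bases of Ebi3, 23.4% overlap the antisense gene Gm16712, whose own level was at most 1.59 CPM in any deep library and was not called between KO and WT in any state. No source used here gives the strand setting of the counting, so reads from the overlap cannot be told apart.

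**Figure D2:**
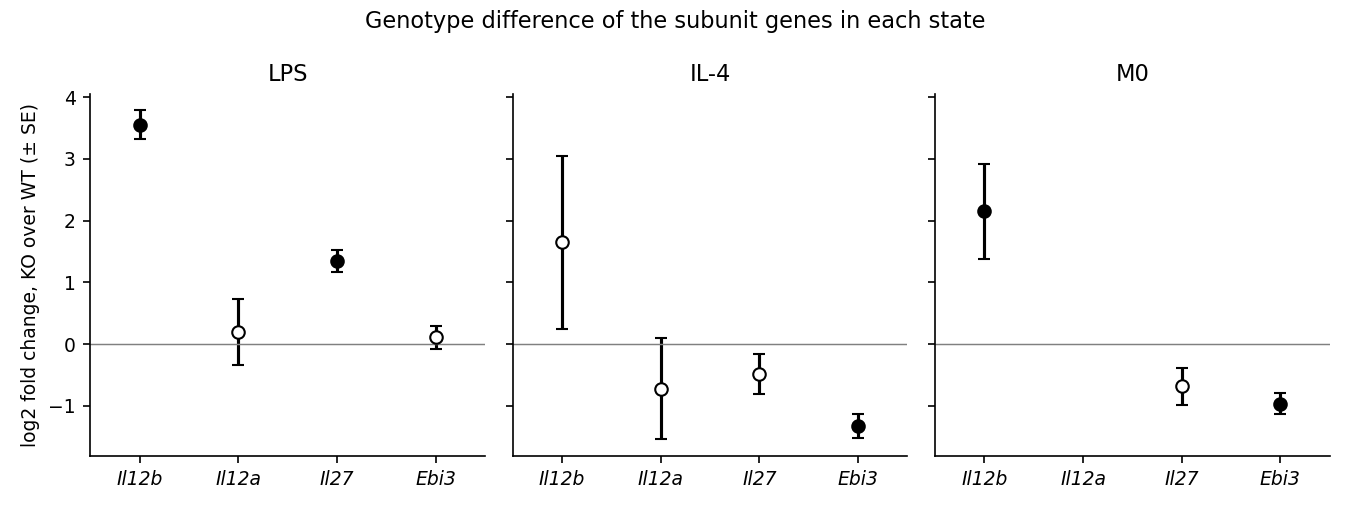
Fitted log2 fold change, KO over WT, of each tested subunit gene in LPS, IL-4 and M0, with bars of ± 1 standard error; filled points have an adjusted p under 0.05 and open points do not. Il12b and Il27 are filled and above 0 in LPS, at 3.55 and 1.35, whereas Ebi3 is filled and below 0 in IL-4 and M0, at -1.32 and -0.96; Il12a has no point in M0 because all 4 WT libraries held 0 counts.

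Il27, the alpha chain of IL-27, is a gene of 1021 exon bases at chr7:126589010-126594941 on the minus strand. After LPS it had 65.4, 61.5, 59.8 and 46.5 CPM in KO libraries, against 15.5, 31.4, 20.6 and 24.8 CPM in WT libraries. No WT library reached the lowest KO library. The mean was 58.3 ± 8.20 CPM in KO, against 23.1 ± 6.73 CPM in WT (SD, n = 4 each), and the log2 difference was 1.35 ± 0.18 (KO over WT, ± SE; adjusted p = 2.95e-06, edgeR). Without the 3 shallow libraries it was also 1.35 (adjusted p = 2.15e-05). Of the chains that pair into IL-27, Il27 was thus called higher in KO after LPS and Ebi3 was not. A difference between these genes was not tested.

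Outside LPS, Il27 was low and its groups overlapped. In M0 it had 0.333, 0.175, 0.183 and 0.160 CPM in KO libraries, against 0.409, 0.208, 0.363 and 0.404 CPM in WT libraries, with a log2 difference of -0.68 ± 0.30 (adjusted p = 0.105, edgeR). After IL-4 it had 0.194, 0.359, 0.181 and 0.121 CPM in KO libraries, against 0.234, 0.462, 0.286 and 0.200 CPM in WT libraries, with a log2 difference of -0.48 ± 0.32 (adjusted p = 0.252, edgeR). The M0 difference passed the threshold without WT library 2 (-0.86, adjusted p = 0.0443), without KO library 5 (-1.03, adjusted p = 0.0226) and without KO numbers 5 and 6 (-1.06, adjusted p = 0.0188). The IL-4 difference passed without KO numbers 5 and 6 (-0.93, adjusted p = 0.0364). Of the exon bases of Il27, 10.1% overlap the opposite-strand gene Apobr. Apobr was called lower in KO in all 3 states, at -0.34 ± 0.093 in LPS (adjusted p = 0.00654), -0.40 ± 0.075 in IL-4 (adjusted p = 0.000191) and -0.42 ± 0.075 in M0 (adjusted p = 0.000255; log2, KO over WT, ± SE, edgeR). That is opposite in sign to the Il27 difference in LPS and the same in sign as those in IL-4 and M0. Outside LPS, Apobr averaged 74.7 to 104 CPM per group and Il27 0.213 to 0.346 CPM, and how far reads of the overlap enter the low Il27 values there was not tested.

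Il12a, the alpha chain of IL-12 and IL-35, is a gene of 1370 exon bases at chr3:68690644-68698547 on the plus strand. After LPS it held 36, 38, 0 and 65 counts in KO libraries, or 0.595, 0.697, 0 and 1.10 CPM, against 0, 1, 28 and 48 counts in WT libraries, or 0, 5.23, 0.475 and 0.856 CPM. The value of 5.23 CPM is a single count in the shallow WT library 2, and among deep libraries the genotypes overlapped. The log2 difference was 0.20 ± 0.54 (KO over WT, ± SE; adjusted p = 0.819, edgeR). Of the chains of IL-12, Il12b was thus called higher in KO after LPS and Il12a was not, and these genes too were not tested against each other. In M0, Il12a held 0, 0, 0 and 4 counts in KO libraries and 0 in each of the 4 WT libraries (adjusted p = 0.179, edgeR). After IL-4 it held 1, 0, 4 and 4 counts in KO libraries, against 4, 2, 4 and 4 in WT libraries, a log2 difference of -0.72 ± 0.82 (adjusted p = 0.491, edgeR).

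Il23a, the alpha chain of IL-23, is a gene of 1360 exon bases at chr10:128296139-128298752 on the minus strand. It held 49 counts over the 24 libraries, was at 0 in 9 of them and was the 1 of 5 subunit genes that did not pass the filter on low counts. Its highest value was 10 counts, or 0.170 CPM, in WT LPS library 3. After LPS it held 5 counts over the KO libraries and 12 over the WT libraries. Tested without the filter, its log2 difference in LPS was -1.77 ± 1.21 (KO over WT, ± SE; adjusted p = 0.312 over 19140 genes, edgeR). It was not called in IL-4 or M0 either (adjusted p = 0.844 and 0.639, edgeR without the filter). Its counts are too few to judge whether Il23a differs between the genotypes.

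The response to LPS was read against M0 within each genotype, and the IL-4 comparisons use the same M0 libraries. In KO macrophages LPS gave log2 changes of 10.12 ± 0.28 for Il12b, 8.04 ± 0.21 for Il27, 5.89 ± 0.69 for Il12a and 4.52 ± 0.18 for Ebi3 (LPS over M0, ± SE), with adjusted p from 1.75e-21 to 4.44e-08 (edgeR). In WT macrophages it gave 8.71 ± 0.38 for Il12b, 6.02 ± 0.21 for Il27 and 3.44 ± 0.18 for Ebi3, with adjusted p from 7.21e-19 to 5.05e-15 (edgeR). Il12a held 77 counts over the WT LPS libraries and none over the WT M0 libraries (adjusted p = 5.81e-08, edgeR). That is 74.7-fold over a floor of 3 counts in the M0 group, without the counting error of the 77 counts. Thus 4 of 4 tested subunit genes rose with LPS in both genotypes, beside 31.2% of all genes tested called higher and 36% lower in KO (67.3% in either direction) and 29.4% higher and 28.3% lower in WT (57.7%). The filter on low counts used all 6 groups. With only the compared groups fitted, Il12a and Il12b did not pass it for KO against WT in M0 or in IL-4. Il12a also did not pass it in such fits of LPS against M0, in KO or in WT. A filter over all 6 groups favours genes that rise with LPS, so the count of 4 was partly set by it. Without the filter, Il23a, which did not pass, changed by 0.30 ± 1.19 in KO and 1.29 ± 1.04 in WT (adjusted p = 0.870 and 0.335, edgeR). For Il12b, Il27 and Ebi3 every LPS library lay above every M0 library in both genotypes, beside 19.2% of all genes tested in KO and 15.4% in WT. The 2 LPS libraries with 0 counts of Il12a, KO 7 and WT 1, are shallow ones.

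Whether the LPS response differed between the genotypes was tested as the response of KO minus that of WT. The difference was 2.03 ± 0.35 for Il27 (log2, ± SE; adjusted p = 0.000338) and 1.07 ± 0.25 for Ebi3 (adjusted p = 0.00561, edgeR), both larger in KO. For Ebi3 the levels after LPS overlapped while the M0 level was lower in KO. The Il27 value also includes its M0 difference of -0.68, which was not called and rests on low counts. For Il12b the difference was 1.41 ± 0.99 (adjusted p = 0.421, edgeR), and its M0 level rests on 57 counts in KO and 12 in WT. These are 2 of 4 tested subunit genes with a larger response in KO, beside 6.62% of all genes tested with a larger and 4.79% with a smaller one. The response of Il12a, at 0 counts in WT M0, differed with an adjusted p of 0.278 (edgeR).

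IL-4 lowered Ebi3 in both genotypes. Its log2 change was -1.47 ± 0.19 in KO (IL-4 over M0, ± SE; adjusted p = 5.74e-07) and -1.11 ± 0.17 in WT (adjusted p = 4.13e-06, edgeR), and every IL-4 library lay below every M0 library of its genotype, beside 21.6% of all genes tested in KO and 27.7% in WT. Il12b changed by -1.85 ± 0.73 in KO (adjusted p = 0.0334), with 15 counts over the IL-4 libraries and 57 over the M0 libraries, and by -1.35 ± 1.5 in WT (adjusted p = 0.405, edgeR). The Il12b call in KO ended without any one of 5 libraries: M0 5 (adjusted p = 0.0709), M0 7 (0.138), IL-4 5 (0.0624), IL-4 7 (0.0933) or IL-4 8 (0.0636). It also ended with DESeq2 (0.0839), without the 3 shallow libraries (0.0523), with only the compared groups fitted (0.146) and without KO numbers 7 and 8 (0.734). Il27 changed by -0.05 ± 0.34 in KO and by -0.25 ± 0.29 in WT, with adjusted p of 0.918 and 0.47 (edgeR). Il12a held 14 counts over the WT IL-4 libraries and none over the WT M0 libraries (adjusted p = 0.0036, edgeR). That is 5.05-fold over a floor of 3 counts in the M0 group, without the counting error of the 14 counts. The floor also takes counts as independent, while the WT IL-4 libraries held 4, 2, 4 and 4 counts, all even. The Il12a level was at most 0.0571 CPM in any WT IL-4 library. Every WT IL-4 library lay above every WT M0 library for Il12a, beside 29.8% of all genes tested. A count of 0 allows up to 0.0320 to 0.0415 CPM in the WT M0 libraries, however, and WT IL-4 library 2 was at 0.0280 CPM, so this separation is within the detection limit. In KO, Il12a changed by 1.08 ± 1.1 (adjusted p = 0.363, edgeR). The calls are 2 of 4 lower in KO, beside 26% of all genes tested called higher and 25.2% lower (51.3% in either direction), and 1 higher and 1 lower in WT, beside 30.9% called higher and 29.3% lower (60.1%). The difference between genotypes in the IL-4 response was called for 0 of the 4, with adjusted p of 0.333 to 0.954 (edgeR), beside 0.47% of all genes tested with a larger and 0.667% with a smaller response in KO. At an unadjusted threshold of 0.05 the count was 1 of 4 (Il12a, edgeR). For Il12a this rests on 0 counts in WT M0 and 4 in KO M0, against 14 in WT IL-4 and 9 in KO IL-4. The share of all genes tested at the unadjusted threshold is not given here, so the 1 of 4 cannot be set beside a general rate. DESeq2 called none, with adjusted p of 0.968 for Il12b and 0.717 for Ebi3 and no adjusted p for the other 2.

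**Figure D3:**
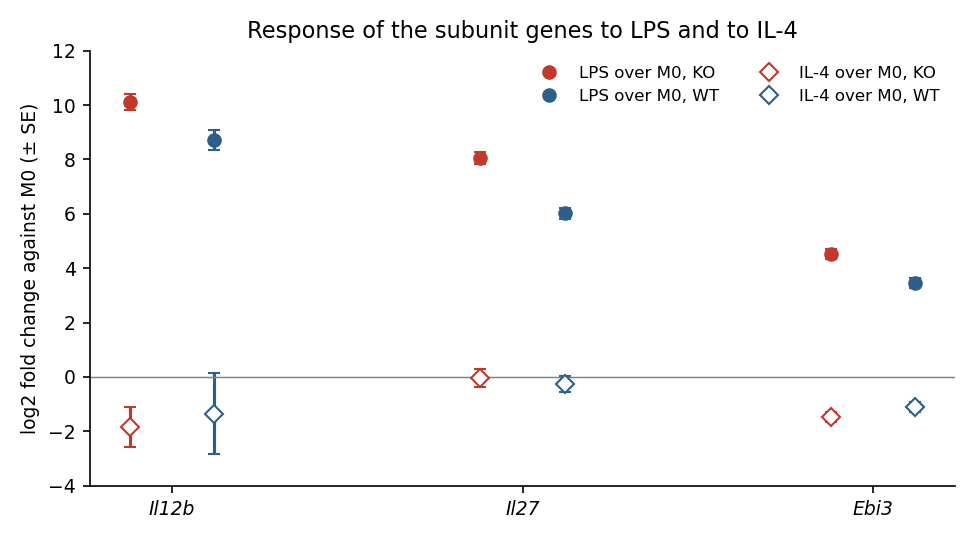
Fitted log2 fold change of Il12b, Il27 and Ebi3 against M0, with filled circles for LPS and open diamonds for IL-4, KO in red and WT in blue, and bars of ± 1 standard error. The LPS responses of all 3 genes lie far above 0, from 3.44 for Ebi3 in WT to 10.12 for Il12b in KO, and Ebi3 lies below 0 after IL-4 in both genotypes; Il12a is not drawn because WT M0 held 0 counts.

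To compare levels between genes, CPM were divided by the exon length in kilobases (kb), using the deep libraries only (3 KO and 2 WT in LPS). After LPS, Il12b averaged 94.0 CPM per kb in KO, next to Ebi3 at 87.7, Il27 at 56.6, Il12a at 0.583 and Il23a at 0.0214. In WT, Ebi3 averaged 82.9 CPM per kb, followed by Il27 at 22.3, Il12b at 7.96, Il12a at 0.486 and Il23a at 0.0754. In KO the libraries of Il12b, at 86.9 to 104 CPM per kb, overlapped those of Ebi3, at 65.3 to 101, so their order is within the spread, and the lowest Ebi3 library lay just above the highest Il27 library, at 64.1. In WT no neighbours in the order overlapped. Outside LPS, Ebi3 was the highest subunit transcript per kb in every group, at 1.37 CPM per kb in KO IL-4, 3.43 in WT IL-4, 3.76 in KO M0 and 7.39 in WT M0, and Il27 came second, at 0.209, 0.289, 0.209 and 0.339. The other 3 averaged at most 0.0892 CPM per kb in those groups.

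**Figure D4:**
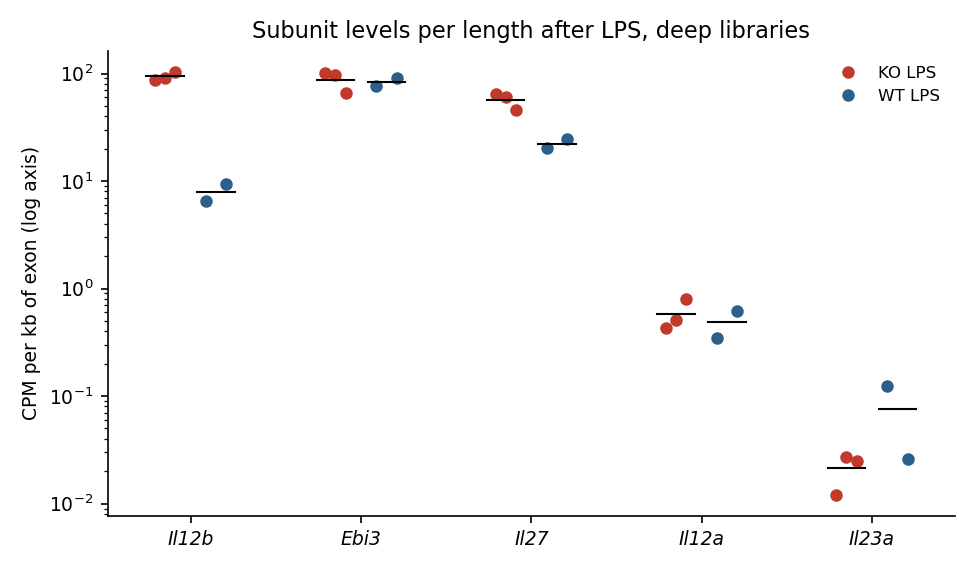
Level of each subunit gene after LPS in CPM per kb of exon, on a log axis, with 1 point per deep library (3 KO in red, 2 WT in blue) and a line at the mean. Il12b averages 94.0 in KO and 7.96 in WT, Ebi3 averages 87.7 in KO and 82.9 in WT, and Il12a and Il23a lie below 1 in every library.

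The chains of IL-12 were far from equal in mRNA after LPS, and those of IL-27 were nearer to each other in KO than in WT. Per kb, Il12b exceeded Il12a 200-, 180- and 128-fold in the deep KO LPS libraries, against 18.7- and 15.1-fold in the deep WT LPS libraries. Ebi3 exceeded Il27 1.58-, 1.61-, 1.06- and 1.43-fold in KO LPS libraries 5 to 8, against 4.13-, 1.77-, 3.75- and 3.70-fold in WT LPS libraries 1 to 4. KO library 7 and WT libraries 1 and 2 are shallow, and their ratios rest on 12 and 10, 14 and 3, and 12 and 6 counts of Ebi3 and Il27. In the deep libraries, 3 KO and 2 WT, both ratios were separate between the genotypes, in opposite directions. There the beta chain of IL-12 was in larger and that of IL-27 in smaller excess in KO. So few libraries can separate easily, and the share of other gene pairs that do so is not given here. These ratios restate the levels above and were not tested.

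Receptor chains and the JAK and STAT proteins that carry their signal were measured in the same cells. In LPS, 4 of 11 were called, all higher in KO, with a median log2 difference of 0.27, beside 16.2% of all genes tested called higher, 14.6% called lower and a median of 0.01. Il6st (gp130), which pairs with Il27ra as the IL-27 receptor, was at 148 to 177 CPM in KO LPS libraries and 87.7 to 131 CPM in WT LPS libraries, 0.66 ± 0.089 higher (adjusted p = 4.24e-06). Il12rb1, the receptor chain that binds the Il12b product, was 0.86 ± 0.26 higher (adjusted p = 0.0137), at 7.04 to 12.6 CPM in deep KO libraries and 5.29 to 6.05 CPM in deep WT libraries, and its LPS response was larger in KO by 1.26 ± 0.35 (adjusted p = 0.0182). Jak1 was 0.34 ± 0.075 higher (adjusted p = 0.00112) and Stat3 0.27 ± 0.079 higher (adjusted p = 0.0106; log2, KO over WT, ± SE, edgeR). The chains that make each receptor specific were not called, at 0.70 ± 0.36 for Il12rb2 of the IL-12 receptor, -0.11 ± 0.42 for Il23r of the IL-23 receptor and 0.14 ± 0.32 for Il27ra of the IL-27 receptor, with adjusted p of 0.136, 0.879 and 0.781. In M0, 1 of the 11 was called higher and 2 lower, beside 11.8% and 10.5% of all genes tested, and in IL-4, 2 higher and 2 lower, beside 17.9% and 18.2%. Of 8 genes that IL-12 family cytokines induce in lymphocytes, 1, Il18rap, was tested. It was not called in LPS, at -0.20 ± 0.27 (adjusted p = 0.618), and was lower in KO in IL-4, at -0.59 ± 0.19 (adjusted p = 0.0198), and in M0, at -0.71 ± 0.20 (adjusted p = 0.0127; log2, KO over WT, ± SE, edgeR).

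Of 18 transcription factors known to act on the subunit genes, 5 were called higher in KO in LPS, 3 lower and 10 not, with a median log2 difference of 0.04. The shares over all genes tested were 16.2% higher and 14.6% lower. Irf8, a factor of the Il12b promoter in mouse macrophages, was 0.68 ± 0.089 higher (adjusted p = 3.01e-06), and Batf, an AP-1 family factor, 0.66 ± 0.086 higher (adjusted p = 3e-06). Fos, an AP-1 subunit, was -0.66 ± 0.087 (adjusted p = 3.57e-06) and Irf3, which carries the interferon branch of LPS signalling, -0.43 ± 0.067 (adjusted p = 2.5e-05; log2, KO over WT, ± SE, edgeR). In M0, 1 of the 18 was called higher and 8 lower, beside 11.8% and 10.5% of all genes tested, and in IL-4, 1 higher and 6 lower, beside 17.9% and 18.2%. Among 17 LPS sensing and signalling genes, 4 were called higher in KO LPS and 2 lower, with a median of 0.03, beside the same 16.2% and 14.6%. Ticam1, the TRIF adaptor, was 0.47 ± 0.098 and Irak2, a kinase below the adaptor MyD88, 0.36 ± 0.075, while Cd14, the LPS co-receptor, was -0.35 ± 0.076 and the kinase Irak1 -0.27 ± 0.069, with adjusted p from 0.000606 to 0.00451 (edgeR).

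Genes that restrain cytokine expression, or follow it as feedback, were called higher in KO LPS for 5 of 15 and lower for 1, with a median log2 difference of 0.25, beside 16.2% of all genes tested called higher and 14.6% lower. Il10, the cytokine known to repress Il12b in macrophages, was at 9.77 to 18.1 CPM in deep KO LPS libraries and 5.26 to 5.38 CPM in deep WT LPS libraries, and at 0 in all 3 shallow ones. Il10 was 1.49 ± 0.29 higher in KO (adjusted p = 0.000342), and its LPS response was larger in KO by 1.94 ± 0.39 (adjusted p = 0.00187; log2, ± SE, edgeR). Thus Il10 and Il12b were both higher in KO macrophages after LPS. Atf3, a repressor induced by Toll-like receptors, was 0.68 ± 0.10 higher (adjusted p = 1.25e-05), the phosphatase Dusp1 0.67 ± 0.12 (adjusted p = 0.000186) and Nfil3, a factor known to repress Il12b in mouse macrophages, 0.53 ± 0.099 (adjusted p = 0.000204). In M0, 2 of the 15 were called higher and 5 lower, beside 11.8% and 10.5% of all genes tested, and in IL-4, 6 were called, all lower, beside 17.9% higher and 18.2% lower. Of 9 related cytokines that signal through gp130, 7 were tested and 2 called, both higher in KO LPS, where 16.2% of all genes tested were called higher: Lif at 0.74 ± 0.14 (adjusted p = 0.000238) and Il6 at 0.76 ± 0.19 (adjusted p = 0.00289), with a median of -0.11 over the 7.

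**Figure D5:**
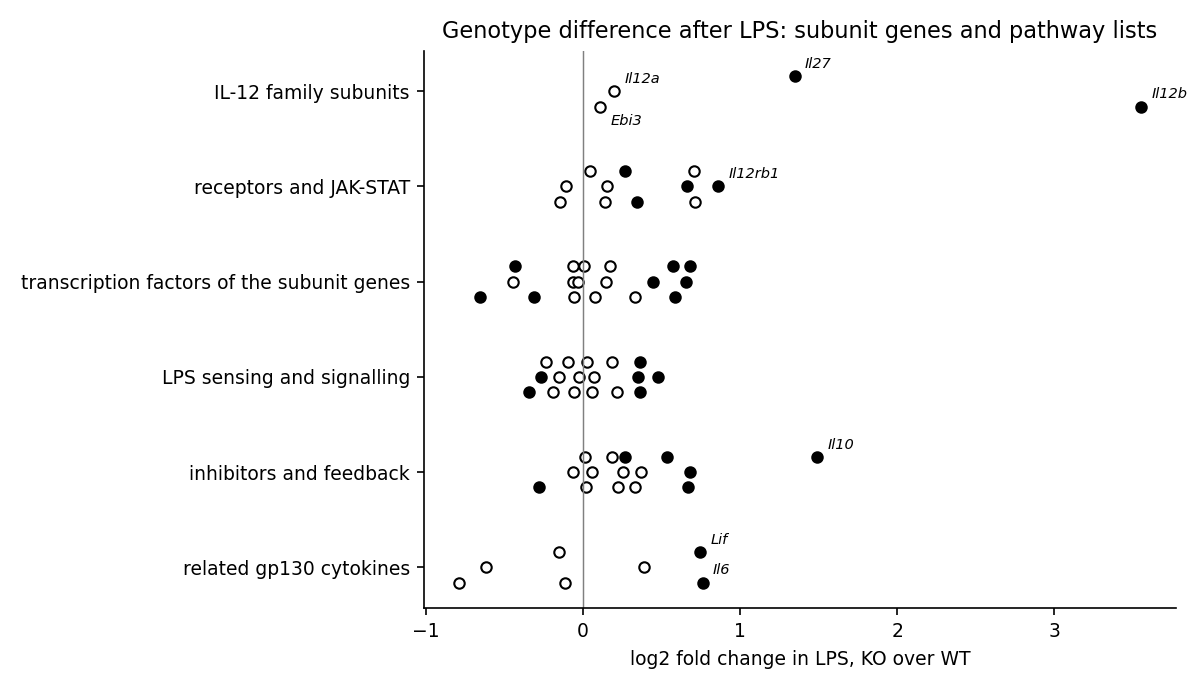
Log2 fold change in LPS, KO over WT, of the 4 tested subunit genes and of each tested gene of 5 pathway lists, 1 point per gene, filled where the adjusted p is under 0.05. Il12b at 3.55 lies farthest to the right of all points drawn, followed by Il10 at 1.49 and Il27 at 1.35, and every other list gene lies between -1 and 1.

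Dendritic cells are another source of IL-12, and their markers were checked beside these results. Of 11 markers, 8 were tested in LPS and 2 were called higher in KO, beside 16.2% of all genes tested: Ccr7 at 2.44 ± 0.45 (adjusted p = 0.000187) and Batf3 at 0.78 ± 0.25 (adjusted p = 0.0183; log2, KO over WT, ± SE, edgeR). The summed level of the 11 was 7.83 to 10.9 CPM in deep KO LPS libraries and 6.10 to 6.17 CPM in deep WT LPS libraries. Cd209a and Siglech were at 0 in every KO LPS library and Cd209a in every WT LPS library. The part of these genes, and of the macrophage and stromal markers above, in the Il12b and Il27 differences was not tested. Summed T and NK cell markers were at 3.34 to 7.90 CPM in KO LPS and 0 to 5.23 CPM in WT LPS. B cell markers summed to 2.07 to 5.98 CPM in KO LPS and 0 to 5.23 CPM in WT LPS, and neutrophil markers to a median of 37.6 CPM in KO LPS and 50.1 CPM in WT LPS.

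Genes with the most similar pattern were sought among 12702 genes over the 21 deep libraries. The measure was the root mean square difference between the 6 group means of log2 CPM, each gene centred on its own mean. A prior count of 2 entered the log2 CPM, which narrows the span of genes near 0 counts. Outside LPS, Il12a held 0 to 4 counts per library and Il12b 0 to 25, so their matches rest in part on that prior. For Il12b the nearest was Nos2 (0.67), the inducible nitric oxide synthase, which averaged 488 CPM in deep KO LPS libraries and 103 CPM in deep WT LPS libraries, followed by Shisa3 (0.75) and Rsad2 (0.75), an antiviral enzyme. For Il27 they were Olfr56 (0.28), AW112010 (0.29) and Gm15056 (0.31). For Ebi3 they included Cxcl2 (0.39), a chemokine, and Itgal (0.42), an integrin chain. For Il12a they were Tor3a (0.22), Hrh2 (0.29) and Tnfrsf8 (0.31). The nearest gene to Il12b was thus farther from it than the nearest gene to each of the other 3, while Il12b also had the widest span of group means.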

How the data were processed

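The deposited values are raw read counts per gene symbol, made by the authors with TopHat2 2.1.0 and HTSeq 0.9.1 on mm10 (GRCm38), per the submitters' processing notes. No source used here gives the annotation, library kit or strand setting. The 5 summary lines of each library, 8.76% to 9.98% of its total, were left out. Even numbers made up 56.2% to 63.8% of counts from 1 to 20 in deep libraries and 44.1% to 45.3% in shallow ones; the cause was not tested.

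The counts of all 24 libraries entered 1 fit in edgeR 4.0.16 (R 4.3.3) with TMM factors, filterByExpr by group (14693 of 24421 genes), a coefficient for each group (18 residual degrees of freedom), checked on simulated data. The threshold in each of 9 contrasts was an adjusted p of 0.05 (Benjamini-Hochberg). Alternatives used DESeq2 1.42.0, its size factors, no filter, only the groups compared, a replicate block, and left-out libraries. Named genes were the subunits, Ogt, Il10, the family's receptors, the 4 called genes of each list with the smallest adjusted p in KO against WT in LPS, and the 3 genes most alike per subunit (1 of those for Ebi3 is not reported here); Gm16712, Apobr, Il18rap, Ccr7 and Batf3 were added after their values were seen. The members and lists were chosen with earlier results of these data known. Positions and exon lengths are from GENCODE M21. Same-numbered KO libraries in IL-4 and M0 deviated together (correlations 0.598, 0.380, 0.528 and 0.521 for numbers 5 to 8), though number 6 correlated better with another number. The main fit did not pair libraries, so its IL-4 tests in KO are unpaired, and the replicate block was an alternative only.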

Additional observations from a re-analysis of the deposited data

Results flagged for a closer look

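The LPS response of Il27 was larger in KO than in WT macrophages by 2.03 (log2), and that of Ebi3 by 1.07, by the test of the difference itself. Both values include the M0 levels. For Il27 the KO over WT difference was 1.35 in LPS and -0.68 in M0, the second not called and at low counts. For Ebi3 it was 0.11 in LPS, not called, and -0.96 in M0. Among 30 sets of 4 libraries of 1 subunit gene and group, 3 held a library set apart from the others by Dixon's 95% criterion. Its rate of about 1 in 20 by chance is for continuous values of equal spread. It does not hold for sets with counts of 0 or shallow libraries, so no comparison with chance is made. They were Il12a in WT LPS library 2, at 5.23 CPM from 1 count, Il12a in KO M0 library 8, at 0.0492 CPM from 4 counts while the other KO M0 libraries had none, and Il27 in KO M0 library 5, at 0.333 CPM.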

How the results depend on the processing

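For the 4 tested subunit genes in 9 contrasts, 553 recomputed values kept their direction and side of the threshold, 16 reversed, 18 lost the call and 7 gained it. Il12b and Il27 in LPS, Ebi3 in M0 and IL-4, every LPS response and the Il27 and Ebi3 differences in that response kept both under each alternative run. The LPS response of Il12a has no value with only the compared groups fitted, since it did not pass the filter there. With DESeq2, the log2 difference of Il12b in M0 was 2.31 and the IL-4 change of Il12b in KO -1.96, both no longer called, and Il12a in LPS was -0.16. Without the 3 shallow libraries, Il12b was 2.13 in M0 and -1.86 for IL-4 in KO, which was -1.89 with only the compared groups fitted; none of these was called. Without KO numbers 5 and 6, the KO against WT differences in M0 were -1.06 for Il27 and 3.81 for Il12a, both gaining a call, the second a fitted value against 0 counts and no bound. They were -0.31 for Ebi3 in LPS, and 0.067 for Il12a, -0.11 for Il12b and -0.93 for Il27 (called) in IL-4. Without KO numbers 7 and 8, they were 1.46 for Il12b in M0 (call lost), -0.084 for Il12a and 0.29 for Ebi3 (called) in LPS, while IL-4 changes in KO were -0.41 for Il12b (call lost) and 0.055 for Il27 and the genotype difference in the IL-4 response of Il12b was 0.95. Leaving out 1 library at a time gave, in M0, 1.63 to 2.69 for Il12b and -1.03 to -0.58 for Il27; in LPS, -0.20 to 0.59 for Il12a; for IL-4 in KO, 0.57 to 3.92 for Il12a, -2.82 to -1.39 for Il12b and -0.41 to 0.23 for Il27; and for the difference between responses, -3.14 to 0.15 for Il12a with LPS, and -1.42 to 0.038 for Il12b and -0.10 to 0.54 for Il27 with IL-4. The call of Il12a after IL-4 in KO appeared without KO M0 library 8 alone (adjusted p = 0.0211, edgeR). Causes were not tested.

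Label numbers recur across states within a genotype, but in 6 of 16 pairs of same-numbered libraries the correlation of deviations over 10119 genes was over 0.1 (from -0.12 to 0.66). All 6 joined IL-4 and M0, and they included all 4 such KO pairs. The main fit took no numbers as pairs. A replicate block moved the Ebi3 difference in LPS response to 0.92 and changed no subunit call. It raised the genes with a larger LPS response in KO to 1620, against 972, and those with a smaller one to 1367, against 704; for IL-4 it gave 497 against 69 and 621 against 98. Low counts limit Il12a, Il23a and, outside LPS, Il12b and Il27.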
